A study of Mus musculus with 15 samples.

Results

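Crosslink sites of the RNA-binding protein tristetraprolin (TTP) were examined in the mRNAs of the machinery that TTP itself recruits. The set comprised 40 genes chosen by name: subunits of the CCR4-NOT and PAN deadenylase complexes, BTG/TOB proteins, decapping factors, exonucleases, poly(A)-binding proteins, the 4EHP-GYF repressors and the miRNA silencing proteins, out of 21028 protein-coding genes with an annotated 3′UTR. The rule names the genes and uses no measured value. The sites came from iCLIP (individual-nucleotide resolution crosslinking and immunoprecipitation), in which ultraviolet light fixes a protein to the RNA base it touches, and each unique cDNA marks 1 such event. The cells were immortalised bone marrow-derived macrophages of TTP-deficient C57BL/6 mice, immortalised with c-myc and an activated Ras, and sorted for GFP after transduction with a retroviral vector. The vector expressed either GFP-TTP or GFP-TTP-AA from a doxycycline-inducible promoter as a coding sequence without its own 3′UTR. In GFP-TTP-AA both serines that the kinase MK2 phosphorylates were replaced by alanine. All groups received 6 h of doxycycline, and lipopolysaccharide (LPS) for 0, 1 or 4 h. Of the 15 libraries, 2, 4 and 2 were from GFP-TTP cells at 0, 1 and 4 h, and 2, 3 and 2 from GFP-TTP-AA cells.

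The libraries of a group had been summed into 1 list of significant sites, so no replicate values and no tag-only control could be used here, and every test below compared lists and not conditions. Intervals cover counting error only. The lists held between 19167 and 174397 cDNAs, and those of 4 h were the smallest in sites. Because a site had to pass a false-discovery rate to be listed, a gene listed at 0 had no site that passed, and no limit can be set on its binding. Crosslinks rise with the amount of an mRNA as well as with its binding, and these cannot be told apart here. Of 8 macrophage marker genes, 6 carried exonic cDNAs (Mertk and Fcgr1 were at 0), whereas 10 markers of T cells, B cells, epithelium, fibroblasts and neutrophils were all listed at 0.

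TTP binds AU-rich elements, of which AUUUA is the core, through its zinc fingers, and recruits CCR4-NOT, decapping factors and the 4EHP-GYF complex to the mRNA. Deadenylases shorten the poly(A) tail, DCP2 with its activators removes the cap, XRN1 degrades the body from the 5′ end and the exosome from the 3′ end. In macrophages this removes cytokine mRNAs after a stimulus, and phosphorylation of TTP by MK2 is known to weaken the recruitment.

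The sequences below show where cDNAs of both proteins fell together over all 6 lists, not always at the same time. Sites of all 6 lists that lay at most 15 nt apart were joined into clusters, which gave 82 clusters in the 3′UTRs of the 40 genes. In 8 of them both proteins had cDNAs, 66 held GFP-TTP-AA alone and 8 held GFP-TTP alone. Of the shared clusters, that of Tob2 had GFP-TTP cDNAs at 0 h only and GFP-TTP-AA cDNAs at 1 h only. In Pan3 and in Ddx6 at chr9:44637521-44637532 both proteins had cDNAs at 0 h, and GFP-TTP had none at 1 h. Clusters were not counted over all genes. At 1 h all genes together had 9558 3′UTR cDNAs in GFP-TTP and 93510 in GFP-TTP-AA, so this split is not read as a trait of the 40 genes. Each sequence is the mRNA strand, 30 nt, 5′ to 3′ (GENCODE M21, GRCm38/mm10), with the crosslinked base of most cDNAs at position 16 and every whole AUUUA in capitals. U is written as T, as in the annotation.
Ago2, chr15:73103342-73103423: aaatgttgctATTTAttttttcctctctct
Pabpc1, chr15:36595906-36595926: gtgctagtcctagattacttgATTTAaaac
Btg2, chr1:134077233-134077257: tacatgttttttttttttttttttaagaaa
Pan3, chr5:147548048-147548063: ttgctttgcttttttttttttttttttttt
Ddx6, chr9:44637521-44637532: atatatatattattttttttggatgaaggt
Ddx6, chr9:44639141-44639162: gggtttttttgttgttttttttttttttta
Tob2, chr15:81848920-81848934: tttttgcttctattttATTTAatttttttt
Xrn2, chr2:147077756-147077777: tgggtctgaATTTAttattgcttgtaaaca
Ago2, Pabpc1, Btg2 and Tob2 are encoded on the minus strand and Pan3, Ddx6 and Xrn2 on the plus strand, and all 8 clusters lay in the 3′UTR. The windows of Ago2, Pabpc1, Tob2 and Xrn2 held an AUUUA, and those of Btg2, Pan3, Tob2 and both Ddx6 clusters a run of U. In Btg2 an AUUUA lay just outside the window. The runs of U were singled out after the sequences were seen.

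Next come clusters with 1 protein only. They show 2 of the 8 places that carried GFP-TTP alone and a choice of places with GFP-TTP-AA alone. In Xrn2 and Pabpc1 this was a second place that GFP-TTP did not share. Some places of GFP-TTP-AA with more cDNAs than that of Patl1, which had 7, are not printed. Among them are Btg2 at 1961 to 2017 nt (15 cDNAs, no AUUUA) and Ago2 at 8217 to 8246 nt (10 cDNAs, with AUUUA). The motifs shown are therefore not those of the highest places as a set.
Gigyf1, GFP-TTP, chr5:137527266-137527275: ttttttttcttttttttctttttttttttt
Cnot6, GFP-TTP, chr11:49672380-49672390: ttacagtattggtggtaattATTTAtgctt
Cnot6, GFP-TTP-AA, chr11:49671561-49671589: actagctagtattatATTTAtatacagggt
Cnot7, GFP-TTP-AA, chr8:40493127-40493149: tattttataaacatATTTAtgatgttcttg
Tob1, GFP-TTP-AA, chr11:94215305-94215369: tcaaaaaaatgtattttctgttaaaggttt
Xrn2, GFP-TTP-AA, chr2:147077671-147077729: ttttatctgtgtgtatatttttactgatct
Patl1, GFP-TTP-AA, chr19:11944883-11944919: cttccttattgtgctttttgttcagttcta
Pabpc1, GFP-TTP-AA, chr15:36595991-36595998: caaaatataaaataaataaaaaaaggaaag
Cnot6 and Cnot7 are on the minus strand, the other genes not yet placed on the plus strand, and these sites too were in 3′UTRs. None of the 42 windows of 30 nt drawn around leading exonic sites of these genes was found in an annotated transcript of another gene. Introns, sequence between genes and repeats were not searched. Unique mapping of the reads is therefore not shown, above all at the runs of U.

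Of the 40 genes, 32 had a sense site in at least 1 list and 25 had one in the 3′UTR. No 3′UTR site of these genes lay in a second gene of the same strand. The scaffold subunit Cnot3, Cnot10, Pan2, the decapping factors Dcp1b and Edc4, the nonsense-mediated decay helicase Upf1 and the exosome subunits Exosc2 and Exosc3 were listed at 0 in every list and region. Another 7 genes had sites outside the 3′UTR only: Cnot1, Cnot4, the deadenylase Parn, Edc3, the cap-binding protein Eif4e2, Pabpc4 and the exosome nuclease Exosc10. In GFP-TTP-AA cells at 1 h, 24 of the 40 genes had a 3′UTR cDNA, where 21.4% of all 21028 genes did. In GFP-TTP cells at 1 h there were 9 of 40 genes, where 6.21% of all genes had a cDNA. At 0 h the counts were 6 genes in GFP-TTP (3.62% of all genes) and 5 in GFP-TTP-AA (4.36%). At 4 h they were 1 gene in GFP-TTP, Tnrc6b (0.604% of all genes), and 3 in GFP-TTP-AA, Pan3, Pabpc1 and Tnrc6a (0.942%). All genes may include many that macrophages do not express, and the 40 may differ from them in expression, which was not measured here. These shares were therefore not set against each other in a test.

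**Figure D1:**
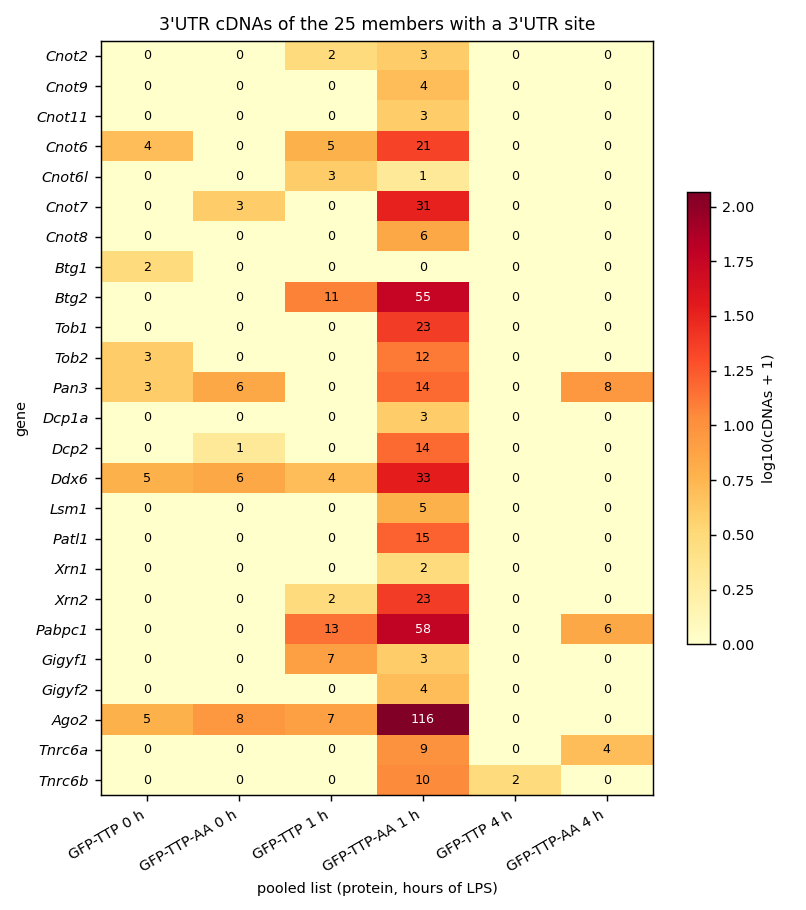
Unique 3′UTR cDNAs (printed in each cell, colour on a log10 scale) of the 25 genes with a 3′UTR site, in rows, in the 6 pooled lists, in columns. The GFP-TTP-AA list of 1 h holds 24 of the 25 genes and Ago2 has the highest value, 116 cDNAs.

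At 1 h the 40 genes held 54 3′UTR cDNAs in GFP-TTP and 468 in GFP-TTP-AA, a ratio of 8.67 (95% interval 6.53 to 11.7, exact conditional binomial). All 3′UTR cDNAs of these lists stood at a ratio of 9.78, which lies inside that interval, so no direction against them is read. Relative to them the ratio of the 40 genes fell below 1, to 0.886. Relative to all cDNAs of any region it was 4.93. There were more cDNAs in GFP-TTP-AA for 22 genes and fewer for 2, Gigyf1 and Cnot6l, a deadenylase with 3 cDNAs in GFP-TTP and 1 in GFP-TTP-AA. With lists this unequal in size, that count is not read as a trait of the 40 genes. By share of 3′UTR cDNAs, 9 of the 14 genes with at least 10 cDNAs were higher in GFP-TTP-AA and 5 lower. Of all 2102 such genes 1447 were higher and 655 lower. In GFP-TTP 7 of the 14 and 1166 of the 2102 were at 0. At 0 h the sums were 22 and 24, a ratio of 1.09 (0.586 to 2.04), where all 3′UTR cDNAs gave 1.38. Relative to these the ratio at 0 h turned to 0.793, and with sites of at least 2 cDNAs it was 2, so no direction is given for this time. At 4 h they were 2 and 18, a ratio of 9 (2.15 to 80.0), where all 3′UTR cDNAs gave 1.1. At this last time the GFP-TTP-AA cDNAs came from Pan3, Pabpc1 and Tnrc6a alone.

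Among the CCR4-NOT genes the scaffold and the catalytic subunits are given apart, and the difference between them was not tested. The 7 scaffold and module genes had 10 3′UTR cDNAs in GFP-TTP-AA at 1 h, from Cnot2, Cnot9 and Cnot11, with 3, 4 and 3. All 4 deadenylase genes had sites there, with 59 cDNAs together. GFP-TTP at 1 h had 2 3′UTR cDNAs in the scaffold and module genes and 8 in the deadenylase genes. Over all regions GFP-TTP at 1 h had 24 and 8, 13 of the 24 in introns of Cnot2. GFP-TTP-AA at 1 h had 26 and 59 over all regions. Cnot7, whose protein is a CAF1-type deadenylase, had 31 3′UTR cDNAs in GFP-TTP-AA at 1 h, 3 in GFP-TTP-AA at 0 h and was listed at 0 in the other 4 lists, including all GFP-TTP lists. Its highest cluster, with 9 cDNAs, lay 838 to 860 nt after the stop codon at an AUUUA. Cnot8, its close relative, had 6 cDNAs in GFP-TTP-AA at 1 h only.

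In Cnot6, a CCR4-type deadenylase with a 3′UTR of 3690 nt, the listed sites of the 2 proteins lay at different places, which was not tested. GFP-TTP had 4 cDNAs at 0 h, all of them 2803 to 2813 nt after the stop codon, and 3 of its 5 cDNAs at 1 h were in the same cluster, the other 2 lying at 244 to 245 nt. GFP-TTP-AA had 21 cDNAs at 1 h and none in that cluster, 15 being in another cluster at 3604 to 3632 nt. Both places held an AUUUA, as printed above. The nearest GFP-TTP-AA cDNAs were 3 at 2849 to 2858 nt. AUUUA at 2808, 2823 and 2848 nt lay in or between that cluster and the GFP-TTP cluster. With so few cDNAs no difference in binding is read.

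Among the BTG/TOB genes, whose proteins bind the CAF1 deadenylases, Btg2 led. Btg2 had 11 3′UTR cDNAs in GFP-TTP and 55 in GFP-TTP-AA at 1 h and was listed at 0 at 0 h and 4 h in both. Of the 11 GFP-TTP cDNAs, 10 were at the U run 112 to 136 nt after the stop codon, which also had the most GFP-TTP-AA cDNAs, 20. The remaining GFP-TTP-AA cDNAs were in 4 clusters at 153 to 162, 1335 to 1350, 1906 to 1921 and 1961 to 2017 nt. Tob1 had 23 cDNAs in GFP-TTP-AA at 1 h, 17 of them at 577 to 641 nt of its 767-nt 3′UTR, and no other list had any. None of its 20 sites was within 20 nt of an AUUUA, although its 3′UTR held 3. Tob2 had 3 cDNAs in GFP-TTP at 0 h and 12 in GFP-TTP-AA at 1 h, and the shared cluster at 1795 to 1809 nt held all 3 and 6 of the 12. Btg1 had 2 cDNAs in GFP-TTP at 0 h only.

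Of the other deadenylases only Pan3 had 3′UTR cDNAs. Pan3, the adaptor subunit of the PAN complex, had 3 in GFP-TTP and 6 in GFP-TTP-AA at 0 h, none and 14 at 1 h, and none and 8 at 4 h. The U run at 2302 to 2317 nt held all cDNAs of 0 h, 7 of the 14 of 1 h and all 8 of 4 h. It was the only 3′UTR cluster of the 40 genes with cDNAs at all 3 times.

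In the decapping group, 5 of 8 genes had 3′UTR cDNAs. Ddx6, an RNA helicase that links CCR4-NOT to decapping, had 5 and 6 cDNAs at 0 h in GFP-TTP and GFP-TTP-AA, 4 and 33 at 1 h, and none at 4 h. All 11 cDNAs of 0 h lay at the short U run 1040 to 1051 nt after the stop codon, as did 12 of the 33 of GFP-TTP-AA at 1 h. The 4 cDNAs of GFP-TTP at 1 h were elsewhere, at the longer U-rich stretch of 2660 to 2681 nt, where GFP-TTP-AA had another 4. None of the 29 GFP-TTP-AA sites of 1 h in Ddx6 was within 20 nt of an AUUUA. Dcp2, the decapping enzyme, had 14 cDNAs in GFP-TTP-AA after 1 h of LPS and 1 before LPS, and Patl1, a decapping activator, had 15 in GFP-TTP-AA at 1 h alone, 7 of them at 1531 to 1567 nt. Lsm1 had 5 and Dcp1a had 3, also in that list alone.

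The nuclear exonuclease Xrn2 had 2 3′UTR cDNAs in GFP-TTP and 23 in GFP-TTP-AA at 1 h. With a 3′UTR of 452 nt this was 50.9 GFP-TTP-AA cDNAs per kb, against 0.4 for the cytoplasmic exonuclease Xrn1, which had 2 cDNAs in 4994 nt. Both GFP-TTP cDNAs were in the cluster at 208 to 229 nt around its AUUUA, which was the single AUUUA of that 3′UTR, whereas 14 GFP-TTP-AA cDNAs were upstream at 123 to 181 nt.

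The miRNA silencing gene Ago2 had the most 3′UTR cDNAs, 5 and 8 at 0 h, 7 and 116 at 1 h in GFP-TTP and GFP-TTP-AA, and none at 4 h. It was 100th of 4510 genes in the GFP-TTP-AA list of 1 h, a rank not scaled to length. Per kb of its long 3′UTR Ago2 had 10.5 GFP-TTP-AA cDNAs at 1 h. This was below Pabpc1 (132), Xrn2 (50.9), Tob1 (30), Btg2 (25) and Cnot7 (21.4). A single cluster 3485 to 3566 nt after the stop codon, in a 3′UTR of 11064 nt, held all 20 cDNAs of GFP-TTP and of 0 h, and 53 of the 116. The remaining GFP-TTP-AA cDNAs were spread from 308 to 10991 nt. Ago2 also has 20 AUUUA in its 3′UTR, and 36 of its 81 GFP-TTP-AA sites of 1 h were within 20 nt of one (44.4%), where 5.86% of the positions of its 3′UTR were. The annotated 3′UTR of Ago2 overlaps Chrac1 on the opposite strand, and the sites carry their strand. Tnrc6a and Tnrc6b, scaffolds of the silencing complex, had 9 and 10 cDNAs in GFP-TTP-AA at 1 h. Tnrc6a had 4 more in GFP-TTP-AA at 4 h, at another place, and Tnrc6b had 2 in GFP-TTP at 4 h.

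**Figure D2:**
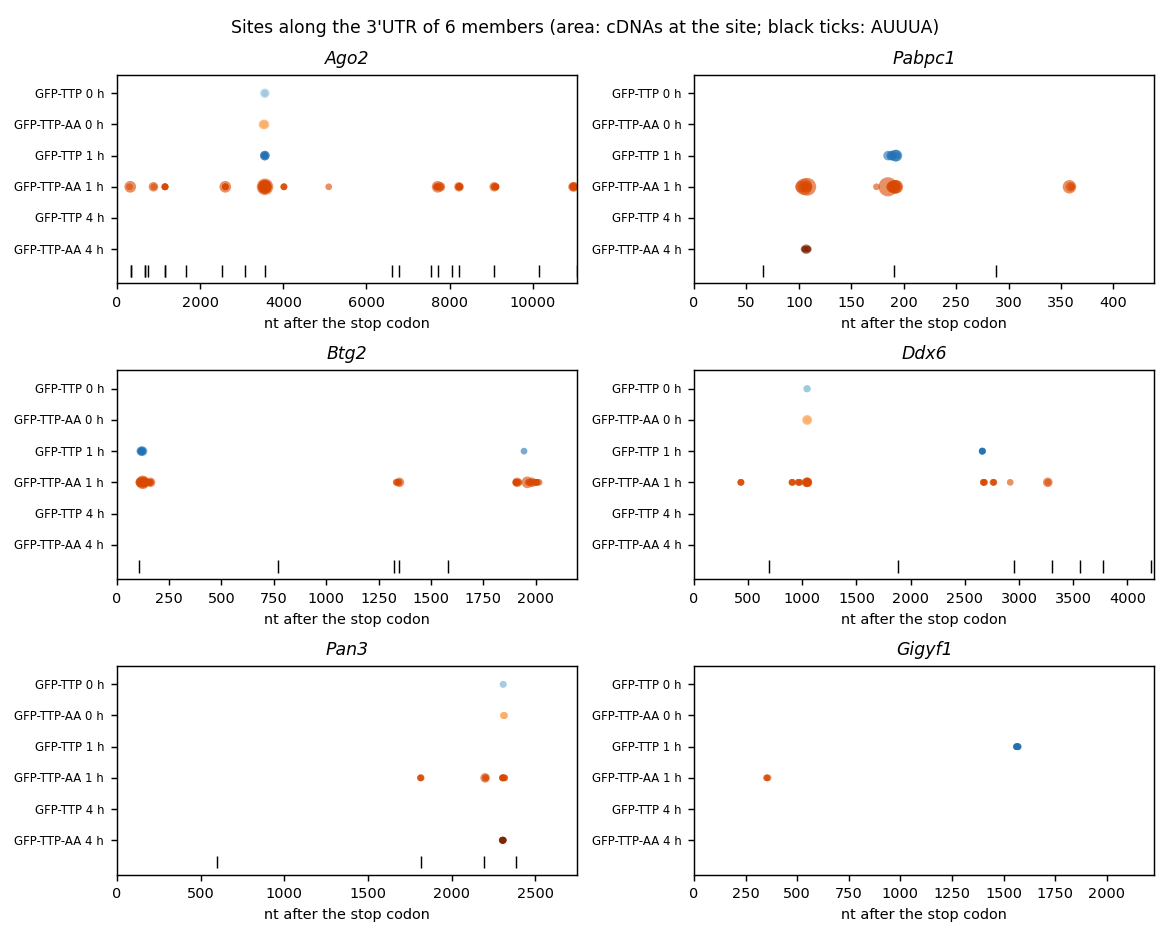
Sites along the 3′UTR of 6 genes, in nt after the stop codon on a scale of its own for each gene, with 1 row per list, circle area for cDNAs at a site and black ticks for AUUUA. The sites of GFP-TTP and of 0 h fall within 1 cluster in Ago2 and in Pan3, while GFP-TTP-AA at 1 h covers further clusters, and in Gigyf1 the proteins share no place.

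Whether the share of a gene among 3′UTR cDNAs differed between the proteins at 1 h was tested for the 2102 genes with at least 10 cDNAs over both lists (two-sided Fisher exact test, Benjamini-Hochberg, threshold 0.05), 14 of the 40 among them. Of the 14, 7 were listed at 0 in GFP-TTP and reached the minimum through GFP-TTP-AA alone. Among all such genes the fewest GFP-TTP-AA cDNAs that were called was 66, and the highest of the 7, Cnot7, had 31, so none of them could be called. The share was higher in GFP-TTP-AA for 0 of the 14 (1.95% of all genes tested), which for these 7 was set by their counts, and higher in GFP-TTP for 1, Gigyf1 (4.28% of all genes tested). At an unadjusted p under 0.05 there were 2, Gigyf1 and Pabpc1, where 18.7% of all genes tested were. Gigyf1, a scaffold that ties TTP to the cap-binding repressor 4EHP, had 7 cDNAs in GFP-TTP, 0.0732% of that list's 3′UTR cDNAs, and 3 in GFP-TTP-AA, 0.00321% (odds ratio 0.0438, adjusted p = 0.000311 by the exact test). All 7 lay at 7 neighbouring positions of the U-rich stretch printed above, with 1 cDNA each, and the 3 GFP-TTP-AA cDNAs lay more than 1000 nt upstream at 352 to 359 nt. Its 3′UTR of 2231 nt holds no AUUUA. Against all cDNAs of the lists, Gigyf1 kept its direction but its adjusted p was 0.0502 (range 0.000436 to 0.0502 over the alternatives that tested it), and counting only sites with at least 2 cDNAs left it without a count. Its relative Gigyf2 had 4 cDNAs in GFP-TTP-AA at 1 h only.

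For Pabpc1 the GFP-TTP share was 0.136% and the GFP-TTP-AA share 0.0620%, from 13 and 58 cDNAs (exact p = 0.0211, adjusted 0.153). Ago2 had 0.0732% and 0.124% (exact p = 0.212, adjusted 0.56), and Btg2 had 0.115% and 0.0588% (exact p = 0.0521, adjusted 0.274). The other 10 genes tested, Cnot6, Cnot7, Tob1, Tob2, Pan3, Dcp2, Ddx6, Patl1, Xrn2 and Tnrc6b, had adjusted p between 0.35 and 1. The denominator decided the call: against all cDNAs of the list, 12 of the 14 were called higher in GFP-TTP-AA, all but Gigyf1 and Cnot6, but so were 84.8% of all genes tested. With the ribosomal RNA locus of chromosome 17 left out of these totals, the same 12 genes were called higher in GFP-TTP-AA, as were 79.4% of all genes tested, and Gigyf1 was called higher in GFP-TTP (adjusted p = 0.0225 by the exact test), as were 0.571%. Of these 12, Cnot7, Tob1, Tob2, Pan3, Dcp2, Patl1 and Tnrc6b were listed at 0 in GFP-TTP. They reached the minimum through GFP-TTP-AA alone, so no difference between the proteins is read from their calls.

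**Figure D3:**
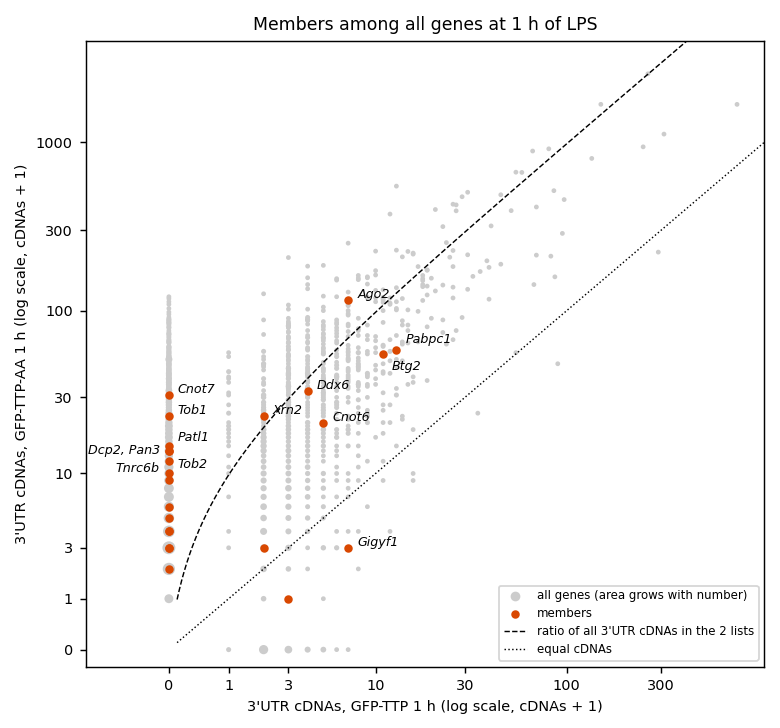
3′UTR cDNAs per gene at 1 h in GFP-TTP (x axis) and GFP-TTP-AA (y axis), on log scales of cDNAs + 1. The 24 genes of the set that had cDNAs are in orange. Grey points stand for all genes, the set included, and their area grows with the number of genes at that pair of counts. Gigyf1, with 7 against 3 cDNAs, lies below the line of equal cDNAs, and Ago2, with 7 against 116, lies above the ratio of all 3′UTR cDNAs.

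At 0 h only Ago2 and Ddx6 reached 10 cDNAs, and neither was called (exact p = 1 for both), where 28.2% of 262 genes tested were. The odds ratio between the proteins could be compared between 0 h and 1 h for these same genes. It was 1.16 and 1.69 for Ago2 (Zelen's exact test, adjusted p = 0.904) and 0.873 and 0.843 for Ddx6 (exact, adjusted p = 1), where 20.3% of 256 genes tested were called. At 4 h no gene of the set reached 10 cDNAs, so none was tested. A minimum of 5 admitted Pan3 (0 against 8 cDNAs, exact adjusted p = 0.0238) and Pabpc1 (0 against 6, exact adjusted p = 0.0492), where 65.4% of 78 genes were called in either direction. Both were admitted through the GFP-TTP-AA list alone, so no difference between the proteins is read from them.

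Between 0 h and 1 h of LPS 3 genes of the set could be tested in GFP-TTP. Btg2 and Pabpc1 were listed at 0 at 0 h and had 11 and 13 cDNAs at 1 h (exact adjusted p = 0.0488 and 0.0363). Both reached the minimum through the 1 h list alone, so these p are given without reading a change from them. Ago2, with 5 and 7, was not called (exact adjusted p = 0.652). Of all 277 genes tested 47.3% were called in either direction. With a minimum of 5 cDNAs only Pabpc1 was called, and against all cDNAs of the list neither was, where 11.6% of all genes tested were called higher at 1 h. In GFP-TTP-AA, 13 genes of the set were tested and Pan3 was called, its share falling from 0.0999% to 0.015% while its cDNAs went from 6 to 14 (odds ratio 0.15, exact adjusted p = 0.0107), where 13.6% of 2081 genes were called. Against all cDNAs of the list Pan3 was not called, and 3 of the 13, Ago2, Btg2 and Pabpc1, were called higher at 1 h, where 22.5% of all genes tested were. Btg2 and Pabpc1 were listed at 0 at 0 h in GFP-TTP-AA too and reached the minimum through the 1 h list alone. No change is read from their calls. The headers of the 1 h lists carried a mark for taking regions as a unit that the other headers lacked, so time and the way sites were selected cannot be told apart in these comparisons.

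Pabpc1, the cytoplasmic poly(A)-binding protein whose 5′UTR is known to hold an A-rich element through which it represses its own translation, had most of its cDNAs in the 5′UTR. At 0 h it had 26 cDNAs there in GFP-TTP and 79 in GFP-TTP-AA. At 1 h it had 28 and 148 and at 4 h it was listed at 0 for both proteins. At 0 h these were all the cDNAs of the gene in either list. Pabpc1 had the most 5′UTR cDNAs of all genes in 3 lists, with 24.3% of the 5′UTR cDNAs of GFP-TTP at 0 h (95% Wilson interval 17.2 to 33.2), 47.6% in GFP-TTP-AA at 0 h (40.1 to 55.2) and 12.4% in GFP-TTP-AA at 1 h (10.6 to 14.3). In GFP-TTP at 1 h it had 2.68% (1.86 to 3.85) and was the 7th gene. This comparison was added after the values were seen and was not tested. The cDNAs lay mainly in 1 stretch of 153 nt, chr15:36608770-36608922 on the minus strand, 416 to 264 nt upstream of the start codon, which held 250 of the 281 cDNAs. The stretch was 40.5% A, against 20.6% in the whole 467-nt 5′UTR. Its 4 highest places are shown in order from the 5′ end, again with the crosslinked base at position 16.
Pabpc1, 401 nt upstream: tcggaacacacATTTAttattaaaaaatcc
Pabpc1, 343 nt upstream: aacccaaaaaaaATTTAcaaaaaaatccgc
Pabpc1, 307 nt upstream: cccgccggagacttttattttttttcttcc
Pabpc1, 285 nt upstream: tttcttcctcttttataaaataacccggtg
Within 10 nt of the first place there were 6 and 15 cDNAs at 0 h and 9 and 51 at 1 h in GFP-TTP and GFP-TTP-AA, and within 10 nt of the second 7 and 17, then 4 and 19. These places hold both AUUUA of the 5′UTR. Within 10 nt of the third there were 5 and 15, then none and 12, and within 10 nt of the last 5 and 25, then 6 and 22. The second place lies inside a stretch of A, and the third and the last next to runs of U and C.

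**Figure D4:**
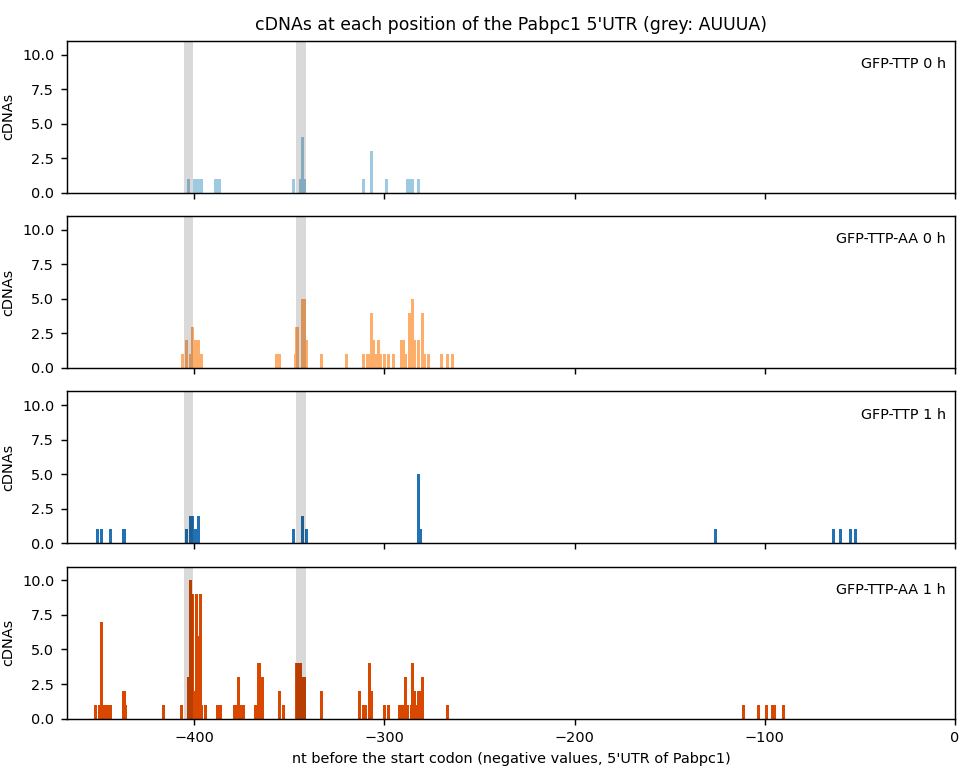
cDNAs at each position of the Pabpc1 5′UTR, in nt before the start codon, in the 4 lists of 0 h and 1 h, with grey bands for both AUUUA. The same places, near 401, 343 and 285 nt upstream, carry cDNAs in all 4 lists, and GFP-TTP-AA at 1 h reaches 10 cDNAs at 1 position.

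In its 3′UTR of 439 nt Pabpc1 had cDNAs in both lists of 1 h and was listed at 0 in both lists of 0 h, which held 4369 and 6008 3′UTR cDNAs over all genes against 9558 and 93510. The 13 GFP-TTP cDNAs of 1 h were all at 174 to 194 nt, at an AUUUA, together with 29 of the 58 GFP-TTP-AA cDNAs. A second place at 102 to 109 nt, without an AUUUA in its window, had 22 GFP-TTP-AA cDNAs at 1 h and all 6 of 4 h, but none of GFP-TTP. The density of 132 GFP-TTP-AA cDNAs per kb of 3′UTR at 1 h was the highest of the 40 genes, before Xrn2. The coding region had another 14 cDNAs in GFP-TTP and 29 in GFP-TTP-AA at 1 h.

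The regional make-up of the 40 genes was read with and without Pabpc1. The 3′UTR share of sense cDNAs was 25.9% in GFP-TTP (Wilson interval 17.8 to 36.1) and 20.5% in GFP-TTP-AA (14.2 to 28.7) at 0 h. It was 39.4% (31.6 to 47.8) and 67.3% (63.8 to 70.7) at 1 h, and 16.7% (4.70 to 44.8) and 69.2% (50 to 83.5) at 4 h. Over all protein-coding genes the 3′UTR share at 0, 1 and 4 h was 44.9%, 37.4% and 13.9% in GFP-TTP and 55.4%, 85.6% and 18.9% in GFP-TTP-AA. Without Pabpc1, the values at 1 h were 50% and 89.1%, and those at 0 h 37.3% and 63.2%. At 4 h the shares rested on 12 and 26 cDNAs in all regions.

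**Figure D5:**
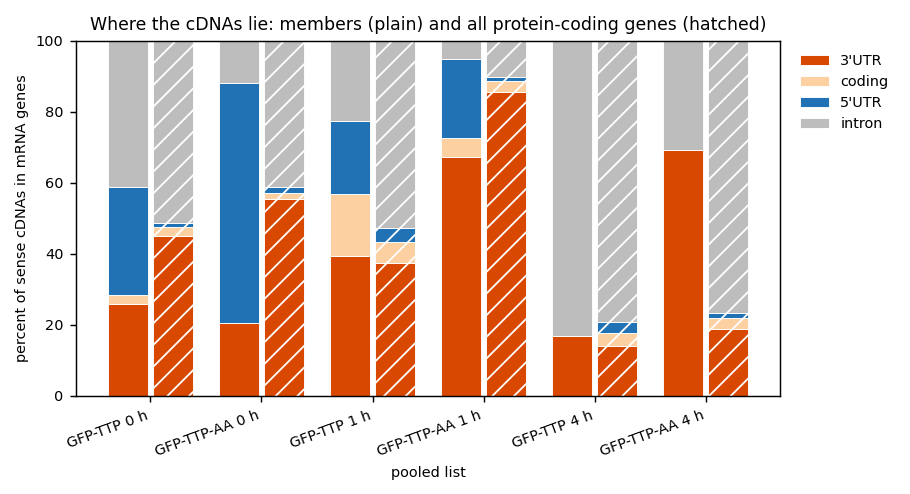
Share of sense cDNAs in 3′UTR, coding region, 5′UTR and introns (percent) for the 40 genes, plain bars, and for all protein-coding genes, hatched bars, in the 6 pooled lists. The 5′UTR takes 67.5% of the cDNAs of the 40 genes in GFP-TTP-AA at 0 h, against 1.53% over all genes.

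Introns of the 40 genes held 8 to 36 cDNAs per list and coding regions 0 to 36. A cluster of 5 neighbouring positions in an intron of Tnrc6b, chr15:80833202-80833208 on the plus strand, had cDNAs in all 6 lists. GFP-TTP had 17, 3 and 3 cDNAs there at 0, 1 and 4 h, and GFP-TTP-AA had 14, 18 and 8. No exon of another gene was annotated there on that strand. The sequence of the site and its overlap with repeats were not analysed here, so whether its reads belong to Tnrc6b alone is unknown. The scaffold subunit Cnot1 had 7 coding cDNAs in GFP-TTP-AA at 1 h, 2 in GFP-TTP at 0 h and 2 at 1 h, and none in its 3′UTR of 956 nt. Cnot2 had 13 intronic cDNAs in GFP-TTP at 1 h, each at a position of its own.

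Near AUUUA lay 24 of the 42 3′UTR sites of GFP-TTP at 1 h (57.1%, Wilson interval 42.2 to 70.9, within 20 nt) and 124 of the 352 of GFP-TTP-AA (35.2%, 30.4 to 40.4). Of the positions in the same 3′UTRs, weighted by their sites, 9.41% and 8.59% were as near. Over all genes 37.8% of GFP-TTP sites and 35.0% of GFP-TTP-AA sites were near AUUUA. Sites of a cluster are not independent, so these intervals are too narrow. In GFP-TTP all sites of Ago2, Pabpc1 and Xrn2, 8 of 9 in Btg2 and 3 of 5 in Cnot6 were near AUUUA. None were in Gigyf1, Ddx6, Cnot2 and Cnot6l, of which Cnot2 and Cnot6l had 2 sites each. In the short 3′UTR of Pabpc1 25.3% of positions were as near. A run of at least 8 U, looked at after the sequences were seen, was within 20 nt of 19 of the 42 GFP-TTP sites (45.2%, 31.2 to 60.1), all of them in Gigyf1, Ddx6 and Btg2, and of 50 of the 352 GFP-TTP-AA sites (14.2%, 10.9 to 18.2). Over all genes the shares near such a run were 15.0% and 7.75%.

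Of the 42 GFP-TTP sites at 1 h, 25 had a GFP-TTP-AA site at most 15 nt away in the same 3′UTR (59.5%, Wilson interval 44.5 to 73.0), where over all genes 76.8% did. At the same base there were 14 of 42. The sites of Ago2, Pabpc1, Ddx6 and Xrn2 all had a neighbour and those of Btg2 in 8 of 9 cases, whereas none in Gigyf1, Cnot6, Cnot6l and Cnot2 did. The last 100 nt of the 3′UTR held 0 of the 42 GFP-TTP sites and 43 of the 352 GFP-TTP-AA sites (12.2%, 9.20 to 16.1). By length, 7.21% and 5.93% would lie there, and over all genes 12.7% and 18.6% of sites did.

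Among 51 further genes of decay and translation control, from further LSM proteins and exosome subunits to nonsense-mediated decay and PABP-binding proteins, 22 had a 3′UTR cDNA in GFP-TTP-AA at 1 h and 4 in GFP-TTP at 1 h. Of all 21028 genes 21.4% and 6.21% had one. Of the 51, 8 had at least 10 cDNAs over both lists at 1 h and 0 passed the Fisher test. Of all genes tested, 1.95% were called higher in GFP-TTP-AA and 4.28% higher in GFP-TTP. An unadjusted p under 0.05 was found for 1 of the 8, where 18.7% of all genes tested had one. As above, genes at 0 in GFP-TTP could not be called at these counts. The highest was Pnrc1, a decapping coactivator, with 48 cDNAs in GFP-TTP-AA and none in GFP-TTP (exact p = 0.0208, adjusted 0.152), followed by the decapping activator Lsm14a with 2 in GFP-TTP and 19 in GFP-TTP-AA.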

How the data were processed

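The authors collapsed PCR duplicates by their random barcode bases, mapped reads to mm10 (GRCm38) with Bowtie, took the base before each read as the crosslink site, added up the libraries per group and retained sites below a false-discovery rate of 0.05 in iCount (100 permutations, 15 nt neighbourhood). The version of Bowtie was not given in the sources used here. The deposited score of a site is a whole number of unique cDNAs, signed for strand, with no further normalisation. Here sites were assigned on their strand with bedtools 2.31.1 and GENCODE M21 in the order 3′UTR, coding, 5′UTR, non-coding exon, intron. Positions refer to the transcript with the longest 3′UTR. Shares were tested with Fisher's exact test over all genes with at least 10 cDNAs in both lists together, and changes of odds ratios with Zelen's exact test (scipy 1.17.1), after a check on simulated data. Depth was 19167 to 174397 cDNAs per list. Genes with at least 10 3′UTR cDNAs over both 1 h lists were named, and the 12 genes with most over the 6 lists were described in full. The 40 genes, the gene lists and the tests were chosen with earlier results of these data known. Alternatives changed the filter, the denominator, the weighting of sites, the motif, the distances and the order of regions.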

Additional observations from a re-analysis of the deposited data

Results flagged for a closer look

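In data that no comparison used, the strand opposite to Xrn1 carried 5 cDNAs at 2 sites in GFP-TTP at 1 h, chr9:95955468-95955470, within an intron of Gm16794, and no other list had any. The strand opposite to Cnot7 had 3 cDNAs in GFP-TTP-AA at 0 h, in an intron of Vps37a.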

How the results depend on the processing

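No paired analysis was possible because each list is a sum over its libraries, and for the same reason no library could be left out. Between libraries the spread is unknown, and most member sites rest on 1 cDNA, so low counts and places with few cDNAs are the least certain values. The denominator changed most. The summed 1 h ratio of 8.67 was 4.93 relative to all cDNAs and fell below 1, to 0.886, relative to 3′UTR cDNAs. Its interval held the ratio of all 3′UTR cDNAs, 9.78, so no direction against these is read. At 0 h the ratio of 1.09 turned to 0.793 relative to 3′UTR cDNAs and was 2 with sites of at least 2 cDNAs, and at 4 h the ratio of 9 was 13.6 relative to all cDNAs, all inside the wide counting intervals. Against all cDNAs of the list, 12 genes were called higher in GFP-TTP-AA at 1 h and 0 higher in GFP-TTP, where 84.8% of all genes were called higher in GFP-TTP-AA. Without the ribosomal RNA locus of chromosome 17 there were 12 (79.4% of all genes) and 1, Gigyf1 (0.571%). Of these 12 genes, 7 were listed at 0 in GFP-TTP and reached the minimum through GFP-TTP-AA alone, so no difference is read from them. With these denominators the odds ratio turned above 1 for Cnot6 (2.39 and 1.96), Btg2 (2.85 and 2.34), Ddx6 (4.7 and 3.86) and Pabpc1 (2.54 and 2.09). The 1 call higher in GFP-TTP, Gigyf1, became 0 with at least 20 cDNAs per gene and 0 with sites of at least 2 cDNAs, since its counts then fall out. For the other comparisons, filters and denominator were varied after the data were seen. A minimum of 5 cDNAs gave 2 calls at 4 h and 1 for GFP-TTP between 0 h and 1 h, and a minimum of 20 left no gene of the set to test in either, nor did the minimum of 10 at 4 h. Against all cDNAs that comparison gave 0 calls and that of GFP-TTP-AA 3. Of these 3, Btg2 and Pabpc1 reached the minimum through the 1 h list alone.

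Genes with at least 5 3′UTR cDNAs numbered 2 and 3 at 0 h in GFP-TTP and GFP-TTP-AA, 5 in GFP-TTP at 1 h and 0 in GFP-TTP at 4 h. With sites of at least 2 cDNAs they numbered 2 and 2 at 0 h, 4 and 15 at 1 h and 0 in GFP-TTP at 4 h. The 3′UTR share with such sites at 0, 1 and 4 h was 12.9%, 47.8% and 0% in GFP-TTP and 10.5%, 56.1% and 36.4% in GFP-TTP-AA. With each site counted once the GFP-TTP-AA values were 29.9%, 74.3% and 84.2%, and without Pabpc1 37.3% and 63.2% at 0 h and 50% and 89.1% at 1 h. For the 14 genes tested at 1 h the median log2 ratio, 4.17 with a pseudocount of 0.5 and 4.52 over all genes tested, was 2.27 and 2.58 with counts under 3 set to 3. It is set by the filter and the pseudocount, since 7 of the 14 and 1166 of the 2102 genes were at 0 in GFP-TTP, and nothing is read from it. The share near AUUUA at 1 h was 38.1% and 26.7% within 10 nt, 51.4% within 50 nt in GFP-TTP-AA, and 35.7% and 19% for UAUUUAU. At the same base 33.3% of GFP-TTP sites had a GFP-TTP-AA site, and 1.14% of GFP-TTP-AA sites lay in the last 50 nt. Of 127 alternatives, 73 counted as unchanged. In these a call was kept, a value stayed inside its counting interval, or a count changed by no more than 1.5 times. For the median the spread between genes was used. This does not exclude a turned direction inside a wide interval. Of the other alternatives, 40 moved outside these limits, 9 turned in direction, 4 were stronger and 1 was weaker.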
